A study of Homo sapiens with 4 samples.

Results

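The replication-dependent histone genes were the 71 genes, of 36601 in the deposited matrices, whose older symbol begins with HIST1H, HIST2H, HIST3H or HIST4H. They comprised 6 H1, 17 H2A, 18 H2B, 15 H3 and 15 H4 genes, and were chosen by name, after ratios of some of them to the control had been seen. Those ratios are therefore given as a description. BEAS-2B cells, an established line of immortalized human bronchial epithelium, were left unirradiated (control) or exposed to 10 mGy, 100 mGy or 1 Gy of Cs-137 gamma rays and harvested 30 min later. Each dose was 1 single-cell library from 1 culture, so dose and library cannot be told apart here and no test between doses was possible. Each library gave the number of unique molecular identifiers (UMIs, each standing for 1 captured mRNA molecule) per gene and cell barcode.

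The libraries held 11111 to 21514 barcodes and 211752280 to 285806026 UMIs, with a median of 12417 to 19771 UMIs per barcode. Barcodes with fewer UMIs than the library median divided by 3, called low-UMI here, made up 19.6% (control), 41.4% (10 mGy), 27.4% (100 mGy) and 25.4% (1 Gy) of the barcodes. Any pair of libraries shared between 76 and 134 barcode sequences. The epithelial markers KRT7, KRT8 and KRT18 were at 219 to 645 UMIs per 1000000 UMIs of the library (CPM), whereas KRT19 and EPCAM reached at most 2.41 CPM. The haematopoietic marker PTPRC and the endothelial marker PECAM1 reached at most 0.0567 CPM.

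Core histones H2A, H2B, H3 and H4 form the protein spool of the nucleosome, and H1 binds the linker DNA between nucleosomes. The replication-dependent genes lie mostly in clusters, lack introns and are transcribed mainly in S phase, when new DNA has to be packaged. Their mRNAs normally end in a conserved stem-loop bound by SLBP instead of a poly(A) tail, and they are degraded when replication ends. The method used here captures mRNA by its poly(A) tail, so the UMIs count the captured transcripts of these genes and not all of them. Each molecule is counted once from its 3′ end, and levels were therefore not divided by gene length.

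The stem-loop letters were read in the GENCODE 29 transcripts, where 69 of the 71 genes had a transcript and 31 of these held a stem-loop of 16 bases. The forms below are shown because the stem differs between classes. The search allowed only TTTA, TTTC or TTTT as the loop, in capitals, and left few bases of the stem free. The likeness of the loops was thus set by the search, and a gene with another form counted as holding none. The first was found in 17 genes, of classes H2A, H2B and H3, the second in 5 genes, all H4, and the third in 5 genes, of classes H2B and H3. The other 4 genes had a further loop or an unequal stem.
Stem-loop of HIST1H2BG and HIST3H2A: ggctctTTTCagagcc
Stem-loop of HIST1H4H and HIST1H4E: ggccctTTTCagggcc
Stem-loop of HIST1H2BC and HIST1H3G: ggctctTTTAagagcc
In 22 of the 31 genes at least 1 annotated transcript ran on for more than 100 bases beyond the stem-loop. The letters were not found in the annotated transcript of HIST1H4C, whose model ends after 435 bases.

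Promoter sequences from RefSeq (GRCh38.p14, 250 bases before to 50 after the start) were matched for 64 of the 71 genes. HIST1H2AH, HIST1H3I, HIST1H3J, HIST1H4A, HIST1H4C, HIST2H2AA3 and HIST2H2AA4 had no entry. Positions are those of that table and not of the deposited files. The 4 promoters below, as the 250 bases before the start, are shown because their genes stood out in the levels. HIST1H2BG had the lowest ratios to the control at the low doses of the histone genes with at least 1 CPM. HIST3H2A was higher at both low doses. HIST1H1B is an abundant H1 gene. At the low doses HIST1H4H had the lowest ratios of the histone genes with a mean of at least 10 CPM. Capitals mark, on either strand, the letters CCAAT and also TATAAA, the octamer known from H2B promoters with the letters ATTTGCAT, and the H1 box with the letters AAACACA.
HIST1H2BG (chr6:26216689-26216938, minus strand): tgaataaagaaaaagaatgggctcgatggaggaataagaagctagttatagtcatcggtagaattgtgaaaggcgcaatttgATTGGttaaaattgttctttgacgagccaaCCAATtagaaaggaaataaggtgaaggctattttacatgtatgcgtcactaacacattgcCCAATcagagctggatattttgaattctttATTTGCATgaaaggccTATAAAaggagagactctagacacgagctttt
HIST3H2A (chr1:228457874-228458123, minus strand): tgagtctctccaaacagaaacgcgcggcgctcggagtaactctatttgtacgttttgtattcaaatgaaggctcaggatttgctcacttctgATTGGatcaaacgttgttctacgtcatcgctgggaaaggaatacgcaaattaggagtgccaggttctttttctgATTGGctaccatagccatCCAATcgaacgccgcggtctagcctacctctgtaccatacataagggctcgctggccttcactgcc
HIST1H1B (chr6:27867589-27867838, minus strand): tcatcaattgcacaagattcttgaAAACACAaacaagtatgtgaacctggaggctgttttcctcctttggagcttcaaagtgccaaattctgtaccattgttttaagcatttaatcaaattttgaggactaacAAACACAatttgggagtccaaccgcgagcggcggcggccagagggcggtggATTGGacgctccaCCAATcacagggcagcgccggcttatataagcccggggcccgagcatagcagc
HIST1H4H (chr6:26285535-26285784, minus strand): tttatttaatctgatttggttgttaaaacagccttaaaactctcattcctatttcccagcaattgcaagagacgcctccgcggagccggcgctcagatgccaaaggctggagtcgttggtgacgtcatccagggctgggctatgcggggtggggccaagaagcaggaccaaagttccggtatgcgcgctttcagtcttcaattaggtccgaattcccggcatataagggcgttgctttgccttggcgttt
CCAAT was found in 84.4% of the 64 histone promoters and in 35.7% of all 27305 promoters, and TATAAA in 65.6% against 12%. By class, CCAAT was in 6 of 6 H1, 14 of 14 H2A, 18 of 18 H2B and 13 of 13 H3 promoters, but in 3 of 13 H4 promoters. The octamer was in 14 of 18 H2B and 11 of 14 H2A promoters, 1 of 13 H3 promoters and 0 of the H1 and H4 promoters, against 1.80% of all promoters. The H3 promoter was that of HIST1H3D, whose window is the same as that of HIST1H2AD, so 1 sequence is counted in both classes for every motif. The class counts are not separate sequences for H2A and H2B either, since 11 pairs of H2A and H2B promoters overlap over 253 to 293 bases, and in 8 of these pairs both hold the octamer. AAACACA was in 6 of 6 H1 promoters, 2 of 13 H3 and 1 of 14 H2A promoters, against 5.76% of all. A match is a description of the letters and not of binding.

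Of the 71 genes, 24 had a mean of at least 10 CPM over the 4 libraries and 57 a mean of at least 1 CPM. HIST1H4G and HIST1H4K had 0 UMIs in every library, which allows up to 0.0142 CPM in a single library for counting error alone. HIST2H2AA3 and HIST2H2AA4, HIST2H4A and HIST2H4B, and HIST2H3A and HIST2H3C are near-identical pairs, so the count of each of these genes is uncertain.

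All 71 genes together were at 3889 CPM (control), 3135 (10 mGy), 3956 (100 mGy) and 3324 (1 Gy). HIST1H4C differed from the rest in this sum and alone held 38.4% of the histone UMIs (control), 60.3% (10 mGy), 70.1% (100 mGy) and 44.6% (1 Gy). Without HIST1H4C, the other 70 genes were at 2397, 1244, 1184 and 1841 CPM in the same order. Set against the control, they were at 0.519 (0.517 to 0.521) for 10 mGy, 0.494 (0.492 to 0.496) for 100 mGy and 0.768 (0.765 to 0.771) for 1 Gy. The bounds are exact, at the 95% level, for counting error alone and not for the variation between cultures or library preparations, and the 3 ratios share the control library.

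HIST1H4C, 1 of many genes for the same H4 protein, had 1493 CPM (control), 1891 (10 mGy), 2772 (100 mGy) and 1483 (1 Gy). It was highest at 100 mGy, with a ratio to the control of 1.27 (1.26 to 1.27) at 10 mGy, 1.86 (1.85 to 1.87) at 100 mGy and 0.994 (0.989 to 0.999) at 1 Gy. In unscaled UMIs per barcode, where the median ratio of all genes was 0.562 at 10 mGy and 0.490 at 100 mGy, its ratio was 0.879 and 1.19, under 1.2-fold at both. The sum of the other H4 genes was instead highest in the control, with 147 CPM (control), 48.8 (10 mGy), 47.1 (100 mGy) and 118 (1 Gy). HIST1H4E had 67.6, 21.9, 21.9 and 51.8 CPM, and HIST1H4H had 35.9, 9.14, 9.13 and 30.8 CPM. Both low doses thus lay far below the control and 1 Gy in these genes, and differed little from each other. HIST1H4H was at 0.255 (0.244 to 0.266) of the control at 10 mGy and 0.255 (0.243 to 0.267) at 100 mGy.

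Among the linker histones, HIST1H1C had 369.7 CPM (control), 228 (10 mGy), 191 (100 mGy) and 293 (1 Gy). HIST1H1B had 360.2, 129, 153 and 256 CPM, the lowest ratio to the control of the H1 genes with at least 10 CPM at both low doses (0.358 and 0.424). HIST1H1E had 244, 109.9, 121 and 182 CPM, and HIST1H1D had 141, 99.0, 98.3 and 103 CPM. In these 4 genes the control was the highest library. HIST1H1A departed from them, with 34.0, 35.4, 37.6 and 31.0 CPM, and the low doses had ratios of 1.04 (1.01 to 1.07) and 1.11 (1.07 to 1.14), or 0.722 and 0.708 in unscaled UMIs per barcode (0.562 and 0.490 for the median of all genes). HIST1H1T, known from the testis, was at or below 0.0105 CPM.

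Of the H2A genes HIST2H2AC was the most abundant, with 266 CPM (control), 139 (10 mGy), 154 (100 mGy) and 177 (1 Gy). At 1 Gy its ratio to the control was 0.663 (0.655 to 0.672), and HIST1H2AL had 0.651 (0.632 to 0.670), the lowest value of the 57 genes at this dose. HIST1H2AL had 55.7, 31.1, 23.5 and 36.3 CPM in the 4 libraries. HIST1H2AH had 72.1, 40.2, 39.9 and 58.1 CPM, HIST1H2AG had 65.5, 37.8, 30.8 and 49.6 CPM, and HIST1H2AC had 64.4, 29.8, 25.2 and 46.4 CPM. HIST1H2AE, HIST2H2AB and HIST1H2AJ, between 17.5 and 21.4 CPM in the control, were at 0.424 to 0.470 of it at 10 mGy and 0.329 to 0.442 at 100 mGy. All 8 had the control highest and 1 Gy next. HIST3H2A was different, with 4.86 CPM (control), 6.77 (10 mGy), 6.25 (100 mGy) and 4.75 (1 Gy), and ratios of 1.39 (1.29 to 1.5), 1.29 (1.19 to 1.39) and 0.977 (0.895 to 1.07). In unscaled UMIs per barcode the ratios at the low doses were 0.966 and 0.824, again with 0.562 and 0.490 for the median of all genes.

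The H2B genes together had 226 CPM (control), 100.3 (10 mGy), 84.3 (100 mGy) and 185 (1 Gy). At the low doses their sum was at 0.443 and 0.372 of the control, the lowest of the 5 class sums with HIST1H4C counted in H4, whereas the H4 genes without HIST1H4C were lower still, at 0.333 and 0.322. HIST1H2BC had 43.7, 17.4, 19.2 and 37.3 CPM, and HIST2H2BF had 30.9, 11.5, 10.4 and 22.8 CPM. HIST1H2BH, HIST1H2BK and HIST1H2BD, at 15 to 18.7 CPM in the control, were at 0.448 to 0.523 of it at 10 mGy and 0.326 to 0.388 at 100 mGy. The most extreme H2B gene with a mean of at least 1 CPM was HIST1H2BG, with 15.5 CPM (control), 2.72 (10 mGy), 1.92 (100 mGy) and 12.5 (1 Gy). The low doses had ratios of 0.176 (0.162 to 0.190) and 0.124 (0.112 to 0.137), against 0.806 (0.766 to 0.849) at 1 Gy. HIST1H2BJ had 7.70, 7.98, 6.95 and 6.36 CPM, with its lowest ratio at 1 Gy (0.826).

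At 1 Gy the H3 genes lay closer to the control than the H1, H2A and H2B genes. HIST1H3B had 109.8 CPM (control), 74.3 (10 mGy), 49.9 (100 mGy) and 104 (1 Gy). HIST1H3D had 55.2, 39.4, 43.0 and 47.0 CPM, and HIST1H3G had 24.9, 15.8, 12.9 and 21.5 CPM. HIST1H3D was at 0.779 (0.759 to 0.8) of the control at 100 mGy, but at 1.02 with median ratio scaling. The class sum at 1 Gy was 0.900 (0.889 to 0.912) of the control, against 0.754 (0.749 to 0.759) for H1, 0.720 (0.714 to 0.726) for H2A and 0.818 (0.807 to 0.829) for H2B.

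**Figure D1:**
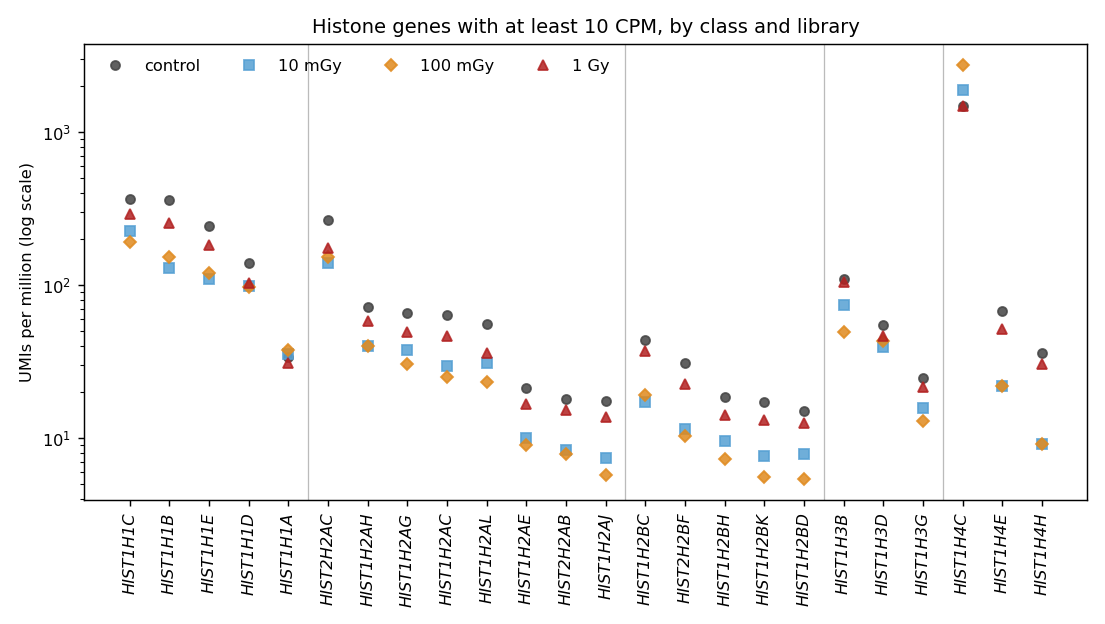
Level of the 24 histone genes with at least 10 CPM (UMIs per 1000000, log scale) in the 4 libraries, ordered by class (H1, H2A, H2B, H3, H4, divided by vertical lines) and by mean level. The control (circles) is the highest library in 22 of the 24 genes, against 29.5% of all 8507 genes with at least 10 CPM, whereas HIST1H4C is highest at 100 mGy (2772 CPM).

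Counted by a change of more than 1.2-fold, the fold of the study's methods, 1 of the 24 genes was higher and 22 were lower than the control at 10 mGy, where 15.4% of all 8507 genes with at least 10 CPM were higher and 53% lower. The same counts, 1 and 22, were found at 100 mGy, against 14% and 58.9% of all genes. At 1 Gy they were 0 and 15, against 1.28% and 0.846% of all genes. The limit of 10 CPM was set on the mean over the 4 libraries, for all genes alike. HIST1H4H, HIST1H2AE, HIST1H2AJ, HIST2H2AB, HIST1H2BD, HIST1H2BH and HIST1H2BK passed it through the control and 1 Gy and were below it at both low doses. Counts of lower genes can therefore depend on this limit. The median ratio of the 24 genes was 0.516, 0.440 and 0.783, and that of all genes 0.810, 0.766 and 1.01. Relative to the median of all genes, which was shifted by -0.30, -0.38 and 0.02 on the log2 scale, the median of the 24 genes was -0.65, -0.80 and -0.37. Scaled to that median, 2 of the 24 genes were higher and 19 lower at 10 mGy (all genes 30.7% higher and 27.0% lower), and 2 were higher and 20 lower at 100 mGy (31.8% and 29%). The shares of all genes are printed as the background and nothing is read from them, because the histone genes were taken up with such ratios known. With the 57 genes of at least 1 CPM, 2 exceeded the control and 52 were under it at 10 mGy (15.2% and 53.4% of 12879 genes), 2 and 53 at 100 mGy (12.6% and 60.9%), and 0 and 32 at 1 Gy (3.14% and 1.42%). The limit of 1 CPM was also set on the mean, and HIST3H2BB and HIST1H2BE, for example, were below it at both low doses. The 1 Gy library lay below the control and above both low doses in 22 of the 24 genes (91.7%) and in 27.3% of all 8507 genes.

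**Figure D2:**
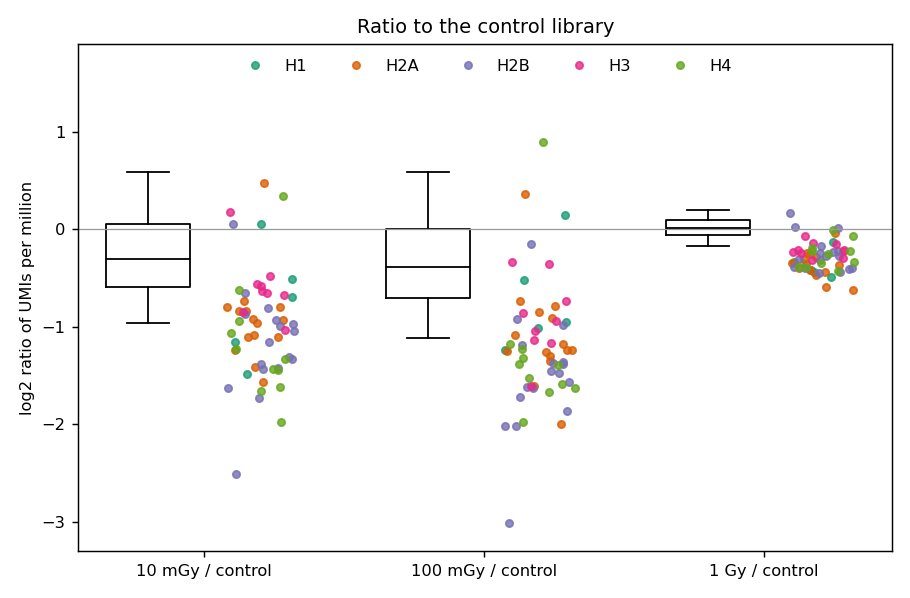
Log2 ratio of UMIs per 1000000 to the control for the 57 histone genes with at least 1 CPM (points, coloured by class) beside all 8507 genes with at least 10 CPM (boxes show the quartiles, whiskers the 5th and 95th percentiles). Most histone genes lie below the box at the low doses, 2 are above 0 by more than 1.2-fold at each low dose on this scale, and at 1 Gy most lie below 0.

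The histone genes are short, with a median exonic length of 666 bases for the 23 of at least 10 CPM that had a length, against 5324 bases for all genes. Across 8500 genes the log2 ratio was lower in genes of greater exonic length at the low doses, with a Spearman rho of -0.55 (10 mGy), -0.57 (100 mGy) and 0.03 (1 Gy), over genes that share the same libraries. Among the 10% of genes with the shortest exonic length, the 831 genes outside the histone set had a median log2 ratio of 0.35 (10 mGy), 0.35 (100 mGy) and -0.02 (1 Gy). The 19 histone genes among these 10% had medians of -0.97, -1.19 and -0.36. Of the 831 genes, 9.39% were lower by more than 1.2-fold at 10 mGy and 11.6% at 100 mGy. These 10% reached up to 2159 bases, so the genes were not matched on length.

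The histone genes were also divided by annotated length. The 17 genes of at least 1 CPM with an annotated transcript of more than 1000 bases were at 0.176 to 0.648 of the control at 10 mGy and 0.124 to 0.519 at 100 mGy, all 17 lower by more than 1.2-fold at each, where 53.4% and 60.9% of all genes of at least 1 CPM were lower. The 38 genes with only shorter transcripts ranged from 0.324 to 1.39 and from 0.247 to 1.86, and 34 of the 38 were lower at each dose. The medians of the longer and the shorter genes were 0.404 and 0.518 at 10 mGy, 0.381 and 0.425 at 100 mGy, and 0.805 and 0.816 at 1 Gy, where 11 of 17 and 21 of 38 were lower (1.42% of all genes), and the difference between them was not tested. Many of the short gene models hold the coding sequence alone, which limits this comparison.

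H2A and H2B genes often stand back to back and share a promoter region. Among the RefSeq promoters, 11 such pairs had overlapping promoter windows, 10 of them with both genes at a mean of 1 CPM or more. HIST3H2BB passed this limit through the control and 1 Gy and was below it at both low doses. HIST3H2A and HIST3H2BB, whose windows overlap over 271 bases, lay on opposite sides of the control in CPM, with ratios of 1.39 and 0.301 at 10 mGy and of 1.29 and 0.275 at 100 mGy. In unscaled UMIs per barcode, a scale on which most genes were below the control, HIST3H2A was below it too, and in S-high cells at 10 mGy it was at 0.994 in CPM. In the pair of HIST1H2AE and HIST1H2BG, the H2A gene was at 0.466 and 0.423 of the control and the H2B gene at 0.176 and 0.124. HIST1H2AG was at 0.577 and 0.470, and its partner HIST1H2BJ at 1.04 and 0.902. The partners lay more than 1.5-fold apart in 5 of the 10 pairs at 10 mGy, 7 at 100 mGy and 0 at 1 Gy. Neither class was always the higher one. The H2A gene had the higher ratio in 6 of 10 pairs at both low doses and in 3 at 1 Gy. Genes without a shared promoter region were not paired for comparison, and nothing is read from these counts. Of all genes with at least 10 CPM, 25.8% were lower than the control by more than 1.5-fold at 10 mGy. The share was 33.9% at 100 mGy and 0.0235% at 1 Gy.

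**Figure D3:**
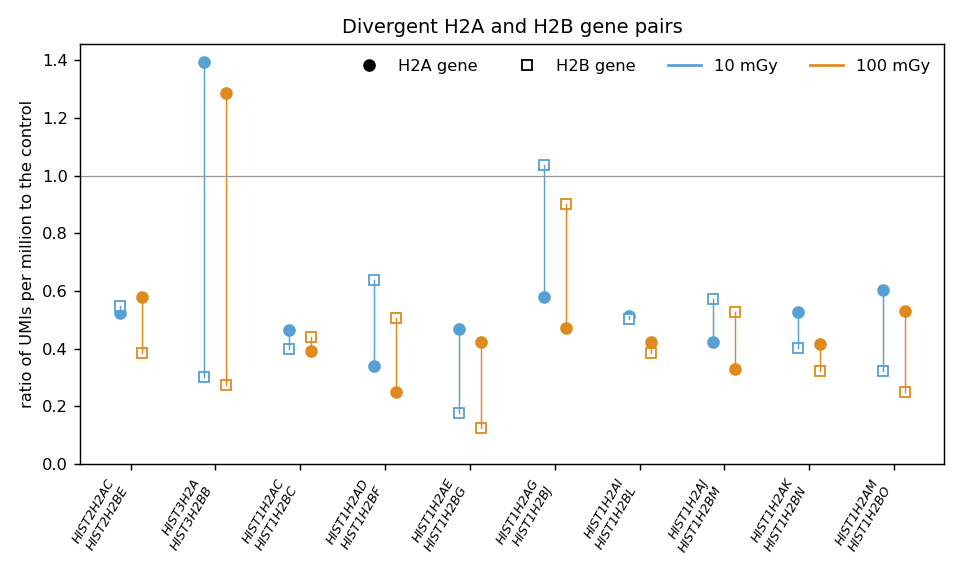
Ratio to the control at 10 mGy (blue) and 100 mGy (orange) of the H2A gene (filled circle) and the H2B gene (open square) of 10 divergent pairs, joined by a line. The lines are long for HIST3H2A with HIST3H2BB (1.39 against 0.301 at 10 mGy) and HIST1H2AG with HIST1H2BJ (0.577 against 1.04), and short for HIST1H2AI with HIST1H2BL (0.514 against 0.501).

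Histone transcripts were found in nearly every barcode that held at least 5000 UMIs. Barcodes below this depth numbered 2051 (control), 8953 (10 mGy), 5679 (100 mGy) and 3980 (1 Gy). With barcodes thinned to 5000 UMIs (9060 to 14271 barcodes, shallower ones left out), at least 1 histone UMI was seen in 99.8% of barcodes (control), 99.7% (10 mGy), 99.6% (100 mGy) and 99.9% (1 Gy). The intervals of these shares are exact binomial at the 95% level, cover counting error over the barcodes of 1 library, and say nothing of the spread between cultures. HIST1H4C was seen in 95.9% (95.5 to 96.3), 97.5% (97.2 to 97.8), 98.3% (98.1 to 98.5) and 97.0% (96.7 to 97.3), and unthinned in 94.1%, 95.6%, 94.0% and 91.5%. After thinning, a barcode held a median of 6 HIST1H4C UMIs (control), 6 (10 mGy), 12 (100 mGy) and 6 (1 Gy). HIST1H4C was thus the histone gene read in most cells at every dose.

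The other classes were seen in fewer cells at the low doses. An H1 UMI was present in 95.1% of the thinned barcodes (control), 81.5% (10 mGy), 79.3% (100 mGy) and 93.0% (1 Gy), and an H2B UMI in 62.4%, 34.7%, 32.1% and 57.3%. H2A was seen in 88.0%, 67.3%, 66.6% and 82.4%, and H3 in 61.3%, 44.7%, 41.0% and 59.9%. All 5 classes were seen together in 39.8% of barcodes (control), 15.9% (10 mGy), 14.2% (100 mGy) and 32.8% (1 Gy). HIST1H2BG was seen in 7.79% (7.25 to 8.36) of barcodes in the control, 1.40% (1.2 to 1.62) at 10 mGy and 0.918% (0.768 to 1.09) at 100 mGy. The culture holds 1 cell line and no cells that lack these genes, so that the share given by free RNA was not tested.

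The spread between cells was taken as the Fano factor, the variance of the thinned UMIs over their mean, which is 1 for pure counting noise. HIST1H4C had 4.12 (control), 5.94 (10 mGy), 7.75 (100 mGy) and 3.69 (1 Gy), and ranked between 2 and 8 among the 8507 genes, or between 4 and 12 after thinning to 1500 UMIs. HIST1H1B had 2.13, 1.64, 1.75 and 1.83, and HIST1H1C had 1.74, 1.58, 1.64 and 1.47. The median over all genes was 1.02 in each library, and 20, 16, 14 and 19 of the 24 histone genes lay above the 90th percentile of all genes, against 14, 15, 13 and 14 after thinning to 1500 UMIs. The Fano factor grows with the level of a gene, and the levels of HIST1H4C differ between libraries. Per barcode, HIST1H4C and the sum of the other 70 genes had a Pearson's r of 0.61 (control), 0.63 (10 mGy), 0.63 (100 mGy) and 0.55 (1 Gy) over the thinned barcodes, which share their library.

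To set histone levels beside the cell cycle, barcodes without the low-UMI ones were ranked in each library by the share of their UMIs in 40 S phase markers, none of them a histone gene, and cut into 10 equal parts. Unthinned, from the first to the last part the 70 genes without HIST1H4C went from 1137 to 3282 CPM in the control, 547 to 1566 at 10 mGy, 465 to 1828 at 100 mGy and 1033 to 2669.8 at 1 Gy. They were higher at every step in the control, at 100 mGy and at 1 Gy, and up to the ninth part at 10 mGy. Unthinned, HIST1H4C was highest in the seventh part of the control, at 1843 CPM, against 1686 CPM in the last, and in the seventh part at 100 mGy, at 3446 CPM, against 1493 in the first and 2960.3 in the last. With thinned barcodes its highest part was the ninth in the control (1747 CPM, 1691 in the last), at 100 mGy (3184 and 2984) and at 1 Gy (1758 and 1675), and the seventh at 10 mGy (2058 and 1793), so the position of this maximum depended on the depth of the barcodes. With thinned barcodes the last part was 2.09 times the first for all 71 genes (control), 1.68 (10 mGy), 1.99 (100 mGy) and 2.02 (1 Gy), against 2.76, 2.10, 2.45 and 2.39 unthinned.

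Ranked by 51 G2/M markers, the histone genes were highest in the middle parts. The 70 genes were at 1307 CPM in the first part of the control, 3326 in the sixth and 1131 in the last. HIST1H4C followed the same course, from 617 CPM to 2174 and 593. At 10 mGy the highest part was the seventh for both, with 1783 and 2803 CPM, whereas it was the sixth for HIST1H4C at 100 mGy and 1 Gy, with 3936 and 2076 CPM. These values are unthinned, and with thinned barcodes the highest part of the control was the fifth for the 70 genes and the seventh for HIST1H4C, and the 70 genes were lower in the ninth part than in the first in the control and at 1 Gy.

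**Figure D4:**
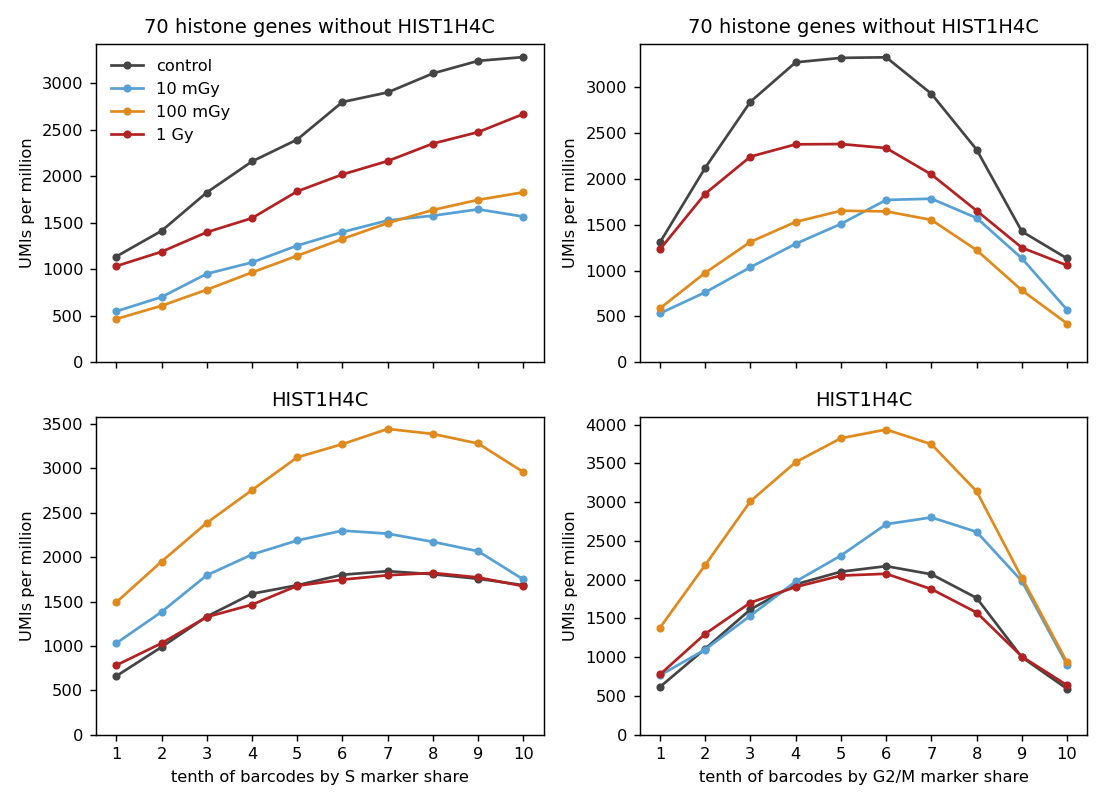
Unthinned level (UMIs per 1000000) of the 70 histone genes without HIST1H4C (top) and of HIST1H4C (bottom) by 10 equal parts of the barcodes ranked by their share of S phase markers (left) or G2/M markers (right), with 1 line per library. The upper left lines rise nearly throughout, the HIST1H4C lines bend down after the sixth to the eighth part, and on the right all lines peak in the middle and are low at 10.

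For a test, counts were summed in each library over S-high cells (the top 10% by S markers), G2/M-high cells (the top 10% by G2/M markers outside S-high) and low cells (below the median of both). The bins were compared with edgeR's quasi-likelihood test, with the library as a block, so that the 4 libraries, which differ in dose, served as replicates. Of the 61 histone genes tested, 51 were higher in S-high than in low cells and 1 was lower (Benjamini-Hochberg adjusted p under 0.05 over all genes tested), where 15.2% of 14904 genes outside the marker lists were higher and 20.4% lower. The median log2 fold change of the 61 genes was 0.62, and that of all genes -0.01. By class, 5 of 5 H1, 14 of 15 H2A, 13 of 17 H2B, 10 of 12 H3 and 9 of 12 H4 genes were higher. Without the library block edgeR called 0 higher, and 22 had an unadjusted p under 0.05 (DESeq2 with the block called 48). The shares of all genes under these alternatives are not given here.

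HIST1H1D rose 2.05-fold in S-high cells (log2 fold change 1.04 ± 0.21 SE, adjusted p = 0.00854), HIST1H1A 1.82-fold (0.86 ± 0.10, adjusted p = 0.000307) and HIST1H1B 1.74-fold (0.80 ± 0.14, adjusted p = 0.00512). HIST1H2AH rose by 0.96 ± 0.11 (adjusted p = 0.000521), HIST2H2AC by 0.68 ± 0.14 (adjusted p = 0.00851), HIST1H2BH by 0.73 ± 0.10 (adjusted p = 2.09e-05) and HIST1H3G by 0.84 ± 0.15 (adjusted p = 0.00366). These genes were higher in S-high cells in 4 of 4 libraries. Over all 24 genes with at least 10 CPM, 23 passed the test and HIST1H4C did not.

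HIST1H4C had a log2 fold change of 0.02 ± 0.14 (adjusted p = 0.922), with 1.18, 1.15, 1.02 and 1.10 times the CPM of low cells in the control, 10 mGy, 100 mGy and 1 Gy. The fitted value lies below these ratios because TMM scaling takes off a shift of most genes, whose median log2 CPM ratio was 0.07, 0.11, 0.17 and 0.06 in the 4 libraries. Among genes under 10 CPM, which are named here after their values were seen, HIST1H4I rose most (1.21 ± 0.12, adjusted p = 1.6e-10). HIST1H2BE was the gene that was lower in S-high cells (-0.45 ± 0.17, adjusted p = 0.0308), at 0.853, 0.760, 0.693 and 0.768 of the low cells. This call was lost with DESeq2 and without any 1 of the libraries (adjusted p = 0.0565 to 0.115), and the log2 fold change was 0.14 after thinning. HIST1H2BJ (-0.02 ± 0.09, adjusted p = 0.886) and HIST3H2A (-0.13 ± 0.13, adjusted p = 0.476) did not pass the test.

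In G2/M-high cells 50 of the 61 genes were lower than in low cells and 1 was higher, where 26.3% of all genes were lower and 25.7% higher. Without the library block 10 were lower and 0 higher, and 29 and 0 had an unadjusted p under 0.05, with no share of all genes given for this setting. The median log2 fold change was -0.70, and that of all genes -0.01. HIST1H4C was here among the genes with a large fall, by 1.26 ± 0.15 on the log2 scale (adjusted p = 0.000363), with 0.416, 0.589, 0.319 and 0.419 times the level of low cells in the 4 libraries. HIST2H2BF had -1.42 ± 0.08 (adjusted p = 1.73e-19), HIST1H2AE -1.22 ± 0.07 (adjusted p = 6.84e-18) and HIST1H1B -1.18 ± 0.15 (adjusted p = 0.000674). HIST1H3G, with -0.32 ± 0.16 (adjusted p = 0.145), was the gene of at least 10 CPM that did not pass the test. HIST1H2BN was the gene that was higher (0.41 ± 0.10, adjusted p = 0.00173), in 3 of 4 libraries, and without the control library its adjusted p was 0.0558.

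**Figure D5:**
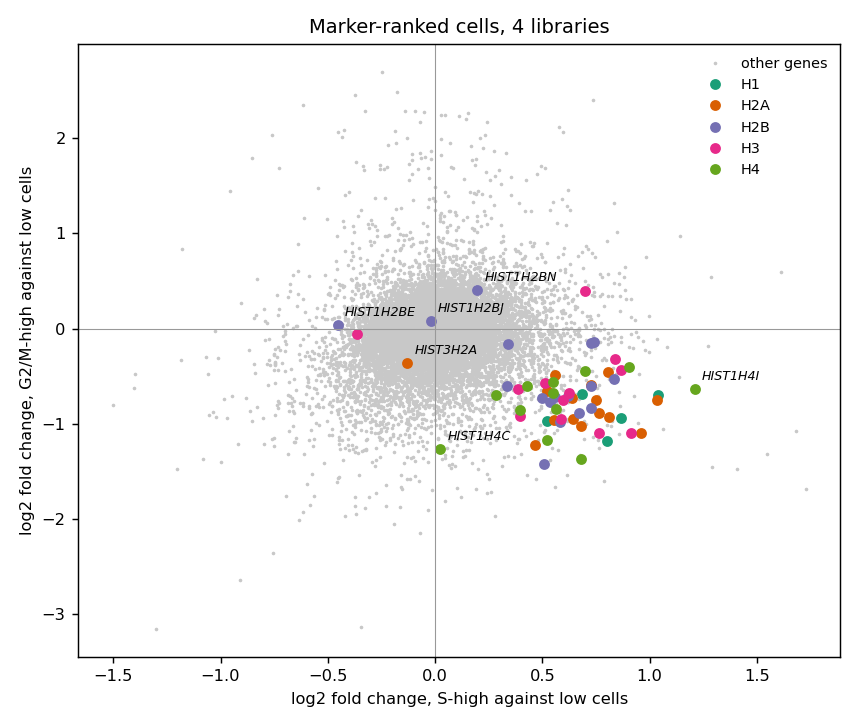
Log2 fold change in S-high against low cells (horizontal) and in G2/M-high against low cells (vertical) for histone genes (coloured by class) and all other genes tested (grey). Most histone genes lie at the lower right, HIST1H4C lies below 0 on the vertical axis at 0.02 on the horizontal one, and HIST1H2BE lies to the left.

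The low level at the low doses was present within each kind of cell. In S-high cells the 70 genes were at 3282 CPM (control), 1566 (10 mGy), 1828 (100 mGy) and 2669.8 (1 Gy), and the ratios to the control were 0.477, 0.557 and 0.813. In low cells the ratios were 0.393, 0.452 and 0.768, and in G2/M-high cells 0.503, 0.368 and 0.933. For HIST1H4C the ratios were 1.04, 1.76 and 0.993 in S-high cells, 1.07, 2.04 and 1.07 in low cells, and 1.52, 1.56 and 1.08 in G2/M-high cells. The ratio of HIST1H4C at 10 mGy was thus under 1.2-fold in S-high and low cells, while at 100 mGy it was above 1.5 in each kind. HIST3H2A at 10 mGy was at 0.994 of the control in S-high cells. S phase markers as a whole were at 3430 CPM (control), 3049 (10 mGy), 2849 (100 mGy) and 3402 (1 Gy), and their part in the ratios was not tested.

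Low-UMI barcodes held 2.16% to 5.40% of the UMIs of a library and differed from the rest in their histone genes. The 70 genes were at 1751 CPM in them and 1215 CPM in the other barcodes at 10 mGy, a ratio of 1.44 (1.42 to 1.46), against 1.03 (1.01 to 1.05) in the control, 1.22 (1.19 to 1.24) at 100 mGy and 1.07 (1.05 to 1.09) at 1 Gy. HIST1H4C was lower in low-UMI barcodes, at 0.509 of the others (control), 0.843 (10 mGy), 0.621 (100 mGy) and 0.589 (1 Gy). Without these barcodes the 70 genes were at 0.507 (10 mGy) and 0.492 (100 mGy) of the control, and HIST1H4C at 1.26 and 1.85.

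Histone variants that are made outside S phase too were described from a list of 11. H2AFZ, the H2A variant at promoters, had 1144 CPM (control), 1882 (10 mGy), 1804 (100 mGy) and 1104 (1 Gy). H3F3B, which encodes a replication-independent H3, had 1344, 1669, 1719 and 1376 CPM. Both were higher at the low doses than in the control and at 1 Gy in CPM, and in unscaled UMIs per barcode H3F3B was at 0.861 and 0.819 of the control at the low doses and H2AFZ at 1.14 and 1.01, against 0.562 and 0.490 for the median of all genes. The median ratio of the 10 variants with at least 10 CPM was 1.19, 1.15 and 0.996, and 4 were higher and 2 lower by more than 1.2-fold at 10 mGy, where 15.4% of all genes were higher and 53% lower. In S-high cells H2AFX, which marks DNA breaks when phosphorylated, rose by 0.14 ± 0.04 (adjusted p = 0.00370) and H2AFY2, a macroH2A gene, by 0.22 ± 0.08 (adjusted p = 0.0197). Another 8 of the 11 were lower after TMM scaling (20.4% of all genes were lower and 15.2% higher), among them CENPA, the centromeric H3 variant (-0.33 ± 0.06, adjusted p = 5.23e-05), H3F3B (-0.22 ± 0.04, adjusted p = 1.15e-05) and H2AFZ (-0.17 ± 0.04, adjusted p = 0.000666). Without this scaling, 5 of the 8 were not lower in every library. In CPM, without the shift of 0.06 to 0.17 that TMM takes off, CENPA, H3F3B and H2AFJ were below low cells in 4 of 4 libraries and the other 5 were above them in at least 1. In G2/M-high cells 3 of the 11 were higher and 3 lower (25.7% and 26.3% of all genes), with a rise of 2.29 ± 0.05 for CENPA (adjusted p = 1.75e-31) and 0.76 ± 0.04 for H2AFX (adjusted p = 5.88e-21). The calls of H2AFX, H2AFY2 and CENPA in S-high cells were each lost under some alternatives, that of CENPA after thinning and over every barcode.

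Of 17 genes for histone mRNA transcription, processing and decay, 8 rose and 1 fell in S-high cells, where 15.2% of all genes were higher and 20.4% lower. SLBP and CASP8AP2 here, and NASP and CHAF1B of the chaperone list, were kept out of the S phase markers by choice. Nothing is therefore read from the shares of all genes for these lists. SLBP, the stem-loop binding protein, rose by 0.54 ± 0.04 (adjusted p = 6.45e-14) and fell by 0.63 ± 0.04 in G2/M-high cells (adjusted p = 6.05e-16). SLBP was at 85.2, 92.0, 83.3 and 85.8 CPM in the 4 libraries, and its ratio to the control stayed between 0.978 and 1.08. NPAT, the coactivator of histone gene transcription, rose by 0.43 ± 0.04 (adjusted p = 2.32e-10) and had 37.6, 25.4, 23.0 and 34.3 CPM. CCNE1, the cyclin whose kinase acts on NPAT, rose by 0.76 ± 0.07 (adjusted p = 7.68e-12), and CASP8AP2, a histone locus body protein, by 0.52 ± 0.04 (adjusted p = 8e-13). LSM10, an Sm-like protein of the U7 particle that cuts histone pre-mRNA, was the gene that fell (-0.35 ± 0.04, adjusted p = 1.45e-09).

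Of 20 genes for histone chaperones and supply, 13 rose in S-high cells and the other 7 did not pass the test, where 15.2% of all genes were higher and 20.4% lower. ASF1B, which carries H3 and H4, rose most (0.52 ± 0.05, adjusted p = 4.57e-09). CHAF1B and CHAF1A, subunits of the complex that deposits H3 and H4 at the replication fork, rose by 0.43 ± 0.04 (adjusted p = 2.66e-10) and 0.40 ± 0.04 (adjusted p = 7.24e-12). At the low doses the median ratio to the control was 0.776 and 0.786 for these 20 genes and 0.705 and 0.691 for the 15 genes of the processing list with at least 10 CPM, against 0.810 and 0.766 for all genes. Of the 15 processing genes, 12 were lower than the control by more than 1.2-fold at each low dose, where 53% and 58.9% of all genes were lower.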

How the data were processed

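Gene expression was measured in single cells with the 10x Genomics 3′ method (v3) in 4 libraries, 1 per dose. The authors deposited whole-number UMI counts per gene and barcode, made with Cell Ranger 7.0.1 (per the file headers), and the submitters' processing notes also name STAR and GRCh37. How reads in introns were counted is not given in the sources used here. Counts were used as deposited, and 0 columns of per-sample values were left out. Doublets were kept.

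The histone genes and the marker, variant, processing and chaperone lists were chosen with earlier results of these data known. UMIs were summed over all barcodes of a library and divided by its total (CPM). Library ratios and shares of barcodes carry exact 95% intervals for counting error. For S-high, G2/M-high and low cells, 12 sums were fitted with edgeR 4.0.16 in R 4.3.3 (quasi-likelihood, robust, TMM, filterByExpr, library as block since its cells come from 1 culture), with Benjamini-Hochberg adjustment over all genes and a threshold of 0.05. DESeq2 1.42.0 was an alternative. Other values were computed with Python 3.11.15, numpy 2.4.6, scipy 1.17.1 and pandas 2.3.3, and figures drawn with matplotlib 3.10.9. The ratio, spread and edgeR steps were tested on simulated data. Depth was 211752280 to 285806026 UMIs per library.

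Named genes were those with a mean of at least 10 CPM, SLBP, NPAT, H2AFZ, H3F3B, and up to 3 of each list with the largest rise and fall in S-high cells. HIST1H2AD, HIST1H2AI, HIST1H2BE, HIST1H2BG, HIST1H2BJ, HIST1H2BL, HIST1H2BN, HIST1H4G, HIST1H4I, HIST1H4K, HIST1H1T, HIST3H2A and HIST3H2BB were named after their values were seen. Alternatives changed the scaling, the barcodes, the depth, the floor, the fold, the block, the bin width, the tool and the libraries.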

Additional observations from a re-analysis of the deposited data

Results flagged for a closer look

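HIST1H2BN had ratios on both sides of 1 among the libraries in G2/M-high against low cells, although at 100 mGy the interval included 1. The ratio was 1.54 (1.31 to 1.81) in the control but 0.820 (0.606 to 1.10) at 100 mGy, where the values rest on 71 and 135 UMIs, with 1.18 (0.930 to 1.5) at 10 mGy and 1.5 (1.28 to 1.76) at 1 Gy. HIST3H2A differed in S-high against low cells, with 1.29 (0.983 to 1.68) in the control, 0.642 (0.522 to 0.783) at 10 mGy, 1.2 (0.975 to 1.48) at 100 mGy and 1.23 (0.948 to 1.58) at 1 Gy. With 1 library per dose, neither difference was tested.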

How the results depend on the processing

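The ratio of the sum without HIST1H4C stayed below 1 under every alternative tried, at 0.360 to 0.641 at 10 mGy and 0.316 to 0.645 at 100 mGy. The sum of all 71 genes depended on the setting. At 10 mGy its ratio was 0.825 with UMIs scaled per barcode, 0.995 with median ratio scaling, 0.559 unscaled, 0.80 without low-UMI barcodes, 0.803 without very high ones, 0.759 thinned, 0.668 in S-high and 0.667 in low cells. At 100 mGy it was 0.976, 1.33 and 0.651 with those 3 scalings, 0.990 thinned, 0.964 in S-high and 1.09 in low cells. At 1 Gy it was 0.845 with median ratio scaling, 0.609 unscaled, 0.858 without very high barcodes, 0.867 thinned, 0.874 in S-high and 0.889 in low cells. The number of genes higher at 10 mGy was 2 with median ratio scaling (30.7% of all genes) or a floor of 1 CPM (15.2%), and 0 unscaled (1.62%), at 1.5-fold (4.94%), in S-high (15.1%) or in low cells (14.9%). At 100 mGy it was 2 with median ratio scaling (31.8%), that floor (12.6%) or in S-high cells (14.1%), and 0 unscaled (1.02%). With that floor 52, 53 and 32 genes were lower at 10 mGy, 100 mGy and 1 Gy (53.4%, 60.9% and 1.42% of all genes), and at 1 Gy 24 were lower unscaled (97.2%) and 2 at 1.5-fold (0.0235%). Nothing is read from these counts.

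HIST1H4C at 10 mGy was at 0.879 unscaled, HIST1H3D at 100 mGy at 1.02 with median ratio scaling, and HIST3H2A at 0.966 unscaled and 0.994 in S-high cells at 10 mGy and 0.824 unscaled at 100 mGy. In S-high cells the log2 fold change of HIST1H4C was -0.019 without the block, -0.13 over every barcode and -0.016 to 0.10 without 1 library, below 0 without the control. That of HIST1H2BE was 0.14 thinned, that of HIST3H2A -0.22 to 0.17 without 1 library (above 0 without 10 mGy), and that of HIST1H2BJ 0.035 over every barcode and -0.18 to 0.084 without 1 library (above 0 without 10 mGy or 100 mGy).

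Without the library block (no pairing of the sums), 0 histone genes were higher and 0 lower in S-high cells, and 0 were higher and 10 lower in G2/M-high cells, where 29 had an unadjusted p under 0.05. The number lower in S-high cells was 0 with DESeq2, wider bins or thinning (1 with an unadjusted p under 0.05 in each), and 0 to 0 without 1 library. Leaving out 1 library, 45 to 50 were higher in S-high cells, 43 to 52 lower in G2/M-high cells and 0 to 1 higher, 0 being without the control. The shares of all genes called under these settings are not given here. Nothing is therefore read from these counts about the histone genes against all genes. The causes were not tested.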
